A study of Gasterosteus aculeatus with 12 samples.

Results

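Chromosome IV of the threespine stickleback (Gasterosteus aculeatus) carries several of the strongest known loci of marine and freshwater adaptation. Its accessible chromatin in male meiotic cells was described here from all peaks that the merged list of the study places on this chromosome. These were 2263 of the 35808 peaks of the list, or 6.32%, and 8.24% of the peaks on the 20 autosomes. The chromosome was the longest autosome, at 32.6 Mb to the end of its last peak, and made up 8.57% of the autosome length. Chromosome XIX, the sex chromosome, was left out of the comparison, and the other 19 autosomes were used to place each value.

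Accessibility was measured by ATACseq on primary spermatocytes, the male germ cells of the first meiotic division. Adult males came from a wild-derived marine and a wild-derived freshwater strain of the River Tyne in Scotland, and were sampled late in a winter light regime. There were 3 marine and 3 freshwater libraries, each made from 50000 cells sorted by size and complexity out of the pooled testes of 3 males, and 6 libraries of naked DNA, 1 from each pool. The 6 ATACseq libraries were merged into 1 peak list on the genome build gasAcu1, so no peak has a value per pool, no difference between ecotypes was analysed, and the depth of single libraries was not analysed here. The study had set its sorting gates with the help of a DNA stain and microscopy. Whether the sorted cells expressed the marks of their stage was not checked here, since the list holds no expression.

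In ATACseq a transposase cuts DNA that is not wrapped tightly around nucleosomes, and the cut sites pile up into peaks at promoters, enhancers and other open regions. In a spermatocyte, open chromatin lies along chromosomes that are paired and are being cut and repaired for crossing over. Chromosome IV is of interest there because marine and freshwater alleles at linked loci are inherited together where few crossovers fall between them. The best known is eda, whose product ectodysplasin is a signalling ligand of the tumour necrosis factor family that shapes the bony lateral plates of sticklebacks. Stc2 encodes stanniocalcin, a secreted glycoprotein, and pnpla3 a lipase-like enzyme of lipid droplets in mammals. The gene pparaa encodes a nuclear receptor that switches on fatty acid oxidation.

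The peaks of chromosome IV were mostly narrow and weak, with a smaller class of wide and strong ones. Peak width had a median of 637 bp, with quartiles at 318 and 1418 bp, and the widest spanned 6377 bp. Fold enrichment, the ratio of reads at a peak's summit to the background of the peak caller, had a median of 3.07 (quartiles 1.98 and 8.29) and ran from 1.13 to 31.9. On a log scale it had 2 modes. The bin from 2.00 to 2.38 held the most peaks, 264, the count fell to 81 at 6.73 to 8.00, and it was 116 at 11.3 to 13.5. Strong peaks below are those whose fold enrichment reached 5, and weak peaks are all others.

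Strong peaks numbered 811 of 2263 on chromosome IV, or 35.8%, where 40.8% of the peaks on the other 19 autosomes were strong. They had a median width of 1678 bp and a median fold enrichment of 11.2, against 388 bp and 2.21 for the 1452 weak peaks. Width and fold enrichment went together over the 2263 peaks (Spearman's rho 0.77), which share their libraries and caller, and rho was between 0.73 and 0.80 on the other autosomes. Of the 338 peaks narrower than 250 bp none was strong, and of the 219 peaks of 2000 to 3000 bp 94.5% were.

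**Figure D1:**
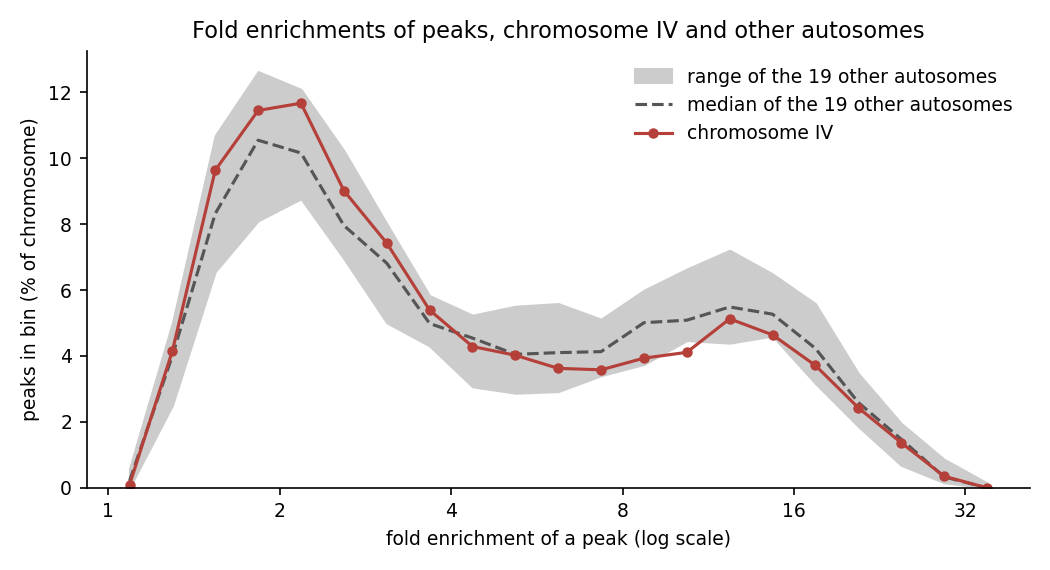
Share of the peaks of a chromosome (vertical axis, percent) in bins of equal width on a log scale of fold enrichment (horizontal axis), for chromosome IV (red), with the range (grey) and median (dashed) of the 19 other autosomes. Chromosome IV lay above the median of the others in each bin from 1.19 to 4.00 and below it in each bin from 4.00 to 26.9, and at 9.51 to 11.3 its 4.11% was under the lowest of the others, 4.47%.

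The strongest peaks were spread along the chromosome. The highest fold enrichment, 31.9, was at a peak from 4987751 to 4989639 (chromosome IV, gasAcu1), the 7th highest on the 20 autosomes. It was followed by peaks from 18809615 to 18812209 with 30.5, from 5446428 to 5451087 with 29.7, from 32493584 to 32495995 with 28.6 and from 11827777 to 11829959 with 28.5. Of these 5 peaks the last named lay nearest to any of the 5 adaptive loci placed here, 980 kb from eda. A fold enrichment of 20 was reached by 78 peaks, or 3.45%, against 3.56% on the other autosomes. They fell in 29 of the 33 steps of 1 Mb, with at most 5 in a step.

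The 5 widest peaks were all strong, but none was among the 5 strongest. Of the 71 peaks at least 3000 bp wide 94.4% were strong, with a median fold enrichment of 16.5. The widest ran from 1327601 to 1333977 and had a fold enrichment of 9.37, which ranked 500 on the chromosome. The next, from 25871716 to 25877866, was 6151 bp wide with 13.2 and lay 422 kb before pparaa. A peak of 5909 bp from 5023547 to 5029455 with 22.9 lay a short way past the strongest peak of the chromosome. Peaks of 5451 bp from 9211916 to 9217366, with 16.5, and of 5162 bp from 16456524 to 16461685, with 21.2, complete the 5 widest.

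Along the chromosome, the number of peaks per full step of 1 Mb had a median of 64.5 and ranged from 31 to 168 (32 steps, summits counted). The first step was the densest, with 168 peaks, of which 135 were weak, and peaks covered 13.8% of it. Its median fold enrichment, 2.08, was the lowest of the 32 steps, and 33 of its peaks were strong. The steps from 4 to 5 Mb and from 10 to 11 Mb followed, with 105 and 104 peaks, of which 21 and 29 were strong. The last 0.603 Mb, too short to be a full step, held 81 peaks, or 134.3 per Mb. The sparsest steps were those from 7 to 8 Mb with 31 peaks, from 20 to 21 Mb with 36 and from 27 to 28 Mb with 40. The step from 7 to 8 Mb also had the highest median fold enrichment, 4.99, and 14 of its 31 peaks were strong.

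Over the 32 steps, the number of weak peaks ranged from 17 to 135 and that of strong peaks from 13 to 41. The 135 were those of the first step, and the next highest number of weak peaks was 84. Quartiles were 33 and 50.25 around a median of 37.5 for weak peaks, and 19 and 30.25 around 23 for strong peaks. The step from 5 to 6 Mb held the 41 strong peaks, with the third highest fold enrichment and the third widest peak of the chromosome among its 100 peaks. The number of peaks in a step and their median fold enrichment tended to go in opposite directions (Spearman's rho -0.37, 32 steps). The numbers in neighbouring steps were weakly related (rho 0.37, 31 pairs of steps), and neither relation was tested. All steps share the same libraries, and base composition was not analysed here.

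**Figure D2:**
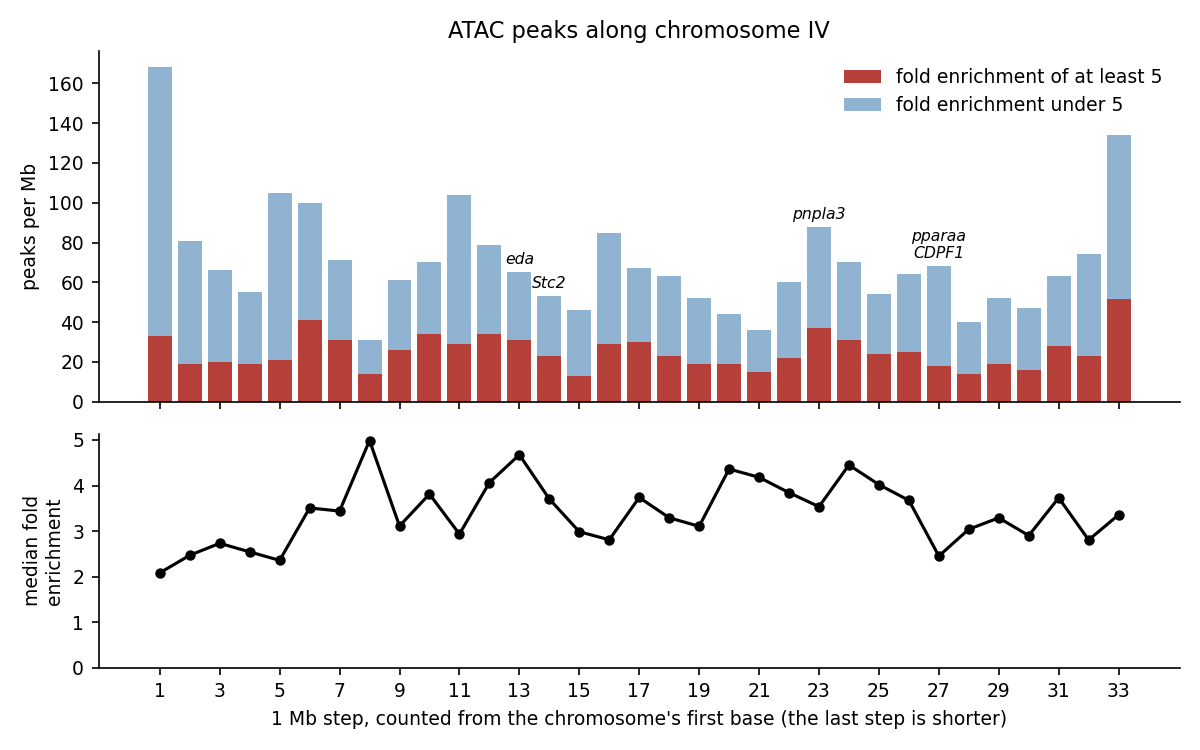
Peaks per Mb (top, vertical axis) in 1 Mb steps of chromosome IV, strong peaks in red and weak peaks in blue, with the steps that hold the 5 adaptive loci marked, and the median fold enrichment in each step (bottom). The first step stands highest with 168 peaks and has the lowest median of 2.08, and the step from 7 to 8 Mb stands lowest with 31 peaks and has the highest median of 4.99.

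At the scale of 100 kb, the 326 full windows held a median of 6 peaks (quartiles 3 and 9). The 5 densest all lay in the first 1.4 Mb. They ran from 100001 to 200000 with 30 peaks, from 800001 to 900000 with 26, from 200001 to 300000 and from 1300001 to 1400000 with 24 each, and from 1 to 100000 with 23. In these 5 windows between 3 and 9 peaks were strong. The 33 densest windows held 25.5% of the peaks, and on the other autosomes the share in a like portion of the windows ran from 22.2% to 30.6%. Windows with no peak numbered 14, and 70 windows had no strong peak.

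Peaks that follow each other within 2 kb formed 27 runs of at least 5 peaks, with 153 peaks or 6.76% of the chromosome's total. Of these runs, 14 lay in the first 15% of the length, 9 of them in the first 1 Mb, and 4 in the last 15%. The largest run had 11 peaks from 174087 to 196295, of which 1 was strong. On the other autosomes the largest run had between 6 and 30 peaks, and 14 of those 19 chromosomes had a larger one than chromosome IV. Of the 27 runs, 7 had no strong peak.

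The distance from a peak to the next had a median of 5458 bp and quartiles of 1327 and 15315 bp. Weak peaks were 10353 bp from the next weak one in the median, and strong peaks 15646 bp from the next strong one. Gaps of at least 50 kb numbered 129 and took up 33.6% of the length, and 30 gaps reached 100 kb. Of the 129, 13 had their midpoint in the first 15% of the length, 93 in the middle 70% and 23 in the last 15%. The 237 peaks beside these gaps had a median fold enrichment of 3.04, against 3.07 for the other peaks of the chromosome.

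The longest stretch without any peak was 274373 bp, from 18084451 to 18358823, the sixth longest on the 20 autosomes. It was bounded by weak peaks, with fold enrichments of 4.28 and 2.66. The next was 255990 bp, from 1459168 to 1715157, directly past the dense first windows, between peaks with 3.57 and 3.03. The third, 225593 bp from 7145990 to 7371582, lay in the sparsest step between strong peaks with 13.7 and 23.4. The fourth and the fifth were 209075 and 209012 bp and met at a single peak of 380 bp, from 20433111 to 20433490, with a fold enrichment of 1.93. In all, 21 peaks had a gap of at least 50 kb on both sides, and their fold enrichments ran from 1.70 to 15.3.

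Where weak peaks were left aside, another stretch was longer than any of these. No strong peak lay between 26371371 and 27346049, over 974679 bp that begin 21.4 kb past CDPF1, the last of the 5 adaptive loci placed here. It was the longest stretch without a strong peak on the 20 autosomes, where the longest of each other autosome ran from 273035 bp on chromosome XI to 660649 bp on chromosome II. Its length was 2.04 times the median of the other autosomes (exact permutation test of the chromosome label over 20 autosomes, two-sided, p = 0.05, the smallest it can give). This p was not adjusted, and the longest gap between peaks of any strength did not pass the test (exact permutation p = 0.55). A longest stretch is picked from all gaps of a chromosome. Chromosome IV was the longest autosome and the 17th of 20 in strong peaks per Mb. The test made no allowance for length or density, and their part in the result was not tested. With a minimum of 3 in place of 5 the stretch shortened to 542482 bp, from 26803568 to 27346049, second to chromosome II (exact permutation p = 0.45). With a minimum of 7 it kept its length, but chromosome XVII had a stretch of 973.6 kb, nearly as long. With a minimum of 10 it was 1212178 bp, and chromosome VII had 1038 kb.

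The stretch was not empty. It held 33 weak peaks with a median fold enrichment of 2.06, from 1.39 to 3.63, and a median width of 371 bp, which together covered 1.82% of it. All 33 had a q-value of at most 4.95e-05. It included 5 gaps of at least 50 kb, the longest of 173452 bp, from 27170147 to 27343598. It began at a strong peak from 26369207 to 26371370 with a fold enrichment of 9.01 and ended at one from 27346050 to 27347056 with 9.63. A second stretch without a strong peak, 499719 bp from 27815604 to 28315322, followed further along and held 11 weak peaks. Of 12 stretches of at least 500 kb on the 20 autosomes, 1 was on chromosome IV, which made up 8.57% of the autosome length. The second stretch of chromosome IV fell just short of that minimum. Assembly gaps, repeats and genes in these stretches were not analysed here. For its crossover maps, the study reversed some scaffolds of gasAcu1 that are known to be misoriented. Whether any of them lie on chromosome IV was not checked here.

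Beside the other autosomes, chromosome IV ranked low in strong peaks and 7th in weak ones. The density of strong peaks, 0.850 times the median of the others, did not pass the test (exact permutation p = 0.3), that of weak peaks was not tested, and the shares and medians below did not pass. It had 24.9 strong peaks per Mb against 29.7 ± 3.65 (SD, n = 19 autosomes), the 17th of 20, and 44.5 weak peaks per Mb against 42.6 ± 5.36. Its 35.8% of strong peaks was the lowest share of the 20 autosomes, 0.865 times the median of the others (exact permutation p = 0.1). The median fold enrichment was the lowest as well, 0.872 times that median (exact permutation p = 0.15), and so was the median width, 637 bp, or 0.851 times (exact permutation p = 0.1). Being the lowest did not give the smallest p, since chromosome XIII lay further from the median on the other side in all 3 measures, with 47.2% strong peaks, a median fold enrichment of 4.47 and a median width of 868 bp. In median fold enrichment chromosome III, at 4.10, did so too. Among strong peaks alone the order turned, without passing the test. Their median width of 1678 bp was second to the 1706 bp of chromosome I, and their median fold enrichment of 11.2 was the 6th.

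Chromosomes I and VII arose, like IV, by fusion of ancestral chromosomes. They were the next longest, at 28.1 and 27.9 Mb. Chromosome I had the second lowest share of strong peaks, 36.3%, and chromosome VII had 38.5%. Over the 20 autosomes longer chromosomes had a lower share of strong peaks (Pearson's r -0.57, Spearman's rho -0.40). Without IV these values were -0.45 and -0.30 over 19 autosomes, and without I, IV and VII they were -0.15 and -0.06 over 17. These 3 are the longest autosomes, so leaving them out also narrows the range of lengths. All chromosomes share the same libraries, and these correlations are given as descriptions only.

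**Figure D3:**
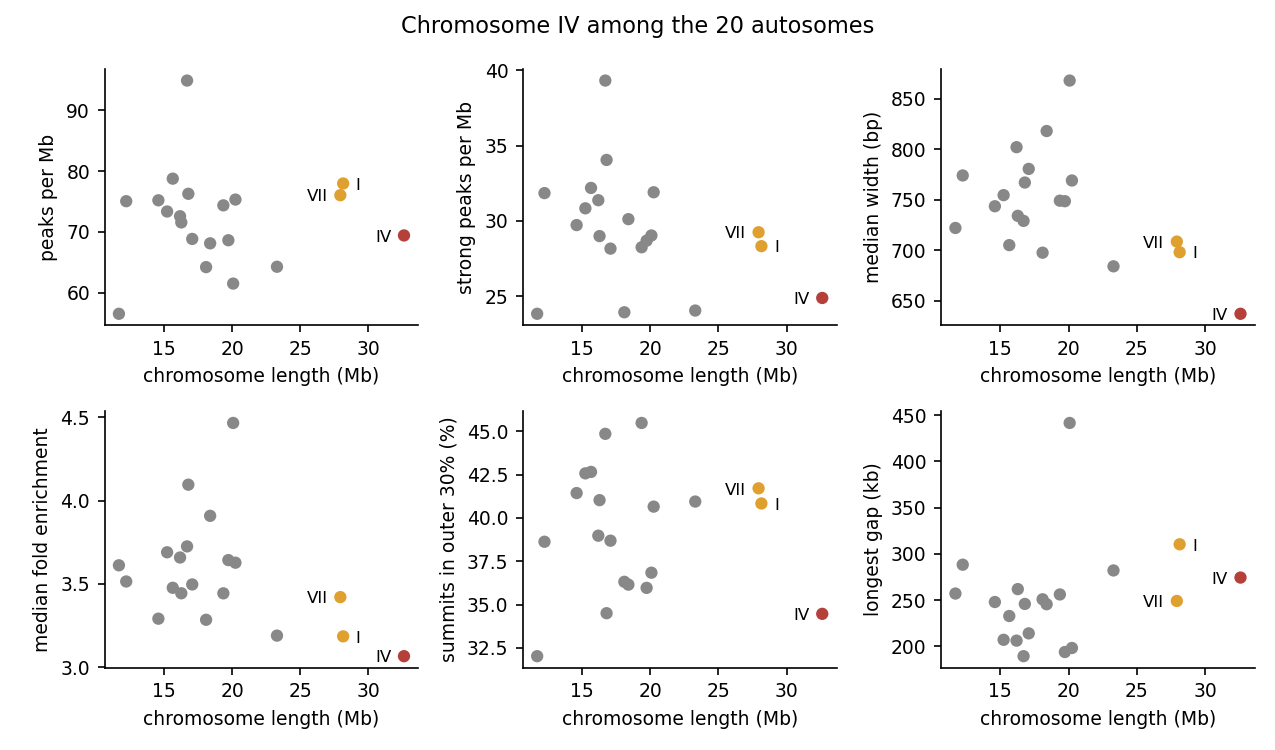
Values of 6 measures (vertical axes, with units) against chromosome length (horizontal axes, Mb) for the 20 autosomes, 1 point each, with chromosome IV in red and chromosomes I and VII in orange. Chromosome IV is the longest at 32.6 Mb and lies lowest in median width (637 bp) and median fold enrichment (3.07), and it lies among the others in peaks per Mb (69.4) and in its longest gap (274.4 kb).

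In density and spacing chromosome IV lay among the others. It had 69.4 peaks per Mb, 0.946 times the median of the other autosomes (exact permutation p = 0.55), and peaks covered 6.77% of it, the 16th of 20. The median gap was 1.09 times that of the others (exact permutation p = 0.55), the longest gap 1.11 times (p = 0.55 in the same exact test), and the share of the length in gaps of at least 50 kb 1.02 times (exact permutation p = 1). Steps of 1 Mb varied with a coefficient of variation of 0.379, or 0.864 times the median of the others (exact permutation p = 0.65). Over the 10 measures tested the Benjamini-Hochberg adjusted p of these exact permutation tests was at least 0.375, so no measure passed. With 20 chromosomes the smallest p is 0.05, and chromosomes that share libraries are not independent samples.

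The rise of peak density toward chromosome ends was present at the start of chromosome IV and smaller at its end. In the first 2 Mb there were 124.5 peaks per Mb, of which 98.5 were weak, in the last 2 Mb 96.5, and in between 63.7. Strong peaks were denser in the last 2 Mb, with 36.5 per Mb, than in the first 2 Mb with 26 or in between with 23.98. The outermost 15% at both ends together held 34.5% of all summits, where an even spread gives 30%. This was the 19th of 20 autosomes and 0.848 times the median of the others (exact permutation p = 0.15). The first 15% held 19.97% of the peaks (7th of 20) and the last 15% held 14.5% (17th of 20). Unequal ends were not particular to chromosome IV, and which end is first follows the assembly. These shares were 24.98% and 15.9% on chromosome I, 29.4% and 9.53% on XV, and the other way round, 9.95% and 31.0%, on II.

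**Figure D4:**
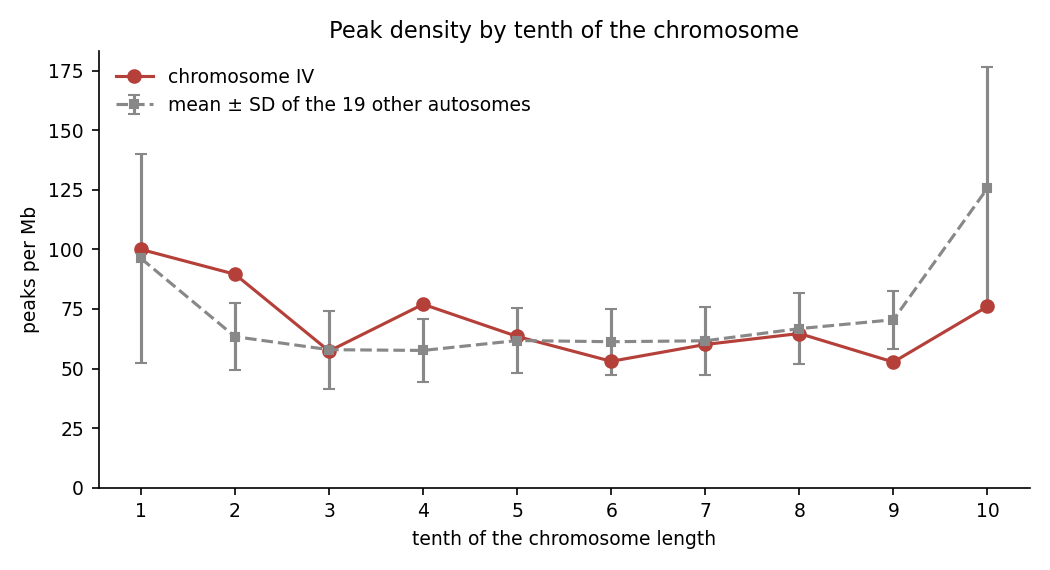
Peaks per Mb (vertical axis) in each 10% of the length (horizontal axis) for chromosome IV (red circles) and as mean ± SD over the 19 other autosomes (grey squares). Chromosome IV had 99.99 peaks per Mb in its first 10% and 76.1 in its last 10%, where the other autosomes had 96.2 ± 43.8 and 125.6 ± 50.9.

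Sections of 10% of the length gave a like picture. In the last 10% it had 76.1 peaks per Mb against 125.6 ± 50.9 on the other autosomes (SD, n = 19), and from 80% to 90% it had 52.8 against 70.5 ± 12.2, under the lowest of them, 53.1. That section had the fewest strong peaks, 15.9 per Mb, and holds the whole of the long stretch without strong peaks. From 10% to 20% chromosome IV had 89.6 per Mb against 63.4 ± 13.9, and from 30% to 40% it had 76.99 against 57.6 ± 13.3. These sections were chosen after their values were seen and were not tested.

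The 5 adaptive loci lie between 39.3% and 80.8% of the length, in the order eda, Stc2, pnpla3, pparaa and CDPF1. They are the 5 regions of the chromosome that the study singles out for very strong marine and freshwater divergence. Any other adaptive loci of the chromosome were not placed here, so the rest of it may hold some. In the RefSeq annotation of another assembly, fGasAcu3.hap1.1, eda, pnpla3 and cdpf1 and a gene named stc2a, taken here for Stc2, are on chromosome 4. The gene pparaa was not matched by name. The nearest genes with a name of their own are there nlgn3a and vma21 beside eda, drd1a and nkx2.5 beside stc2a, sult4a1 and ttll12 beside pnpla3, and wnt7ba and cdkn1ba beside cdpf1. Positions of the loci are rounded to 10 kb, which by itself leaves distances uncertain by up to 5 kb. The study gives a position for each region but not its extent. Distances and gaps at a locus therefore refer to that position, and the edges of the region may lie elsewhere. Which gene a peak belongs to was not determined.

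Between eda and CDPF1, over 13.5 Mb, there were 61.9 peaks per Mb, against 74.8 in the rest of the chromosome. Weak peaks had 37.1 against 49.8 per Mb, and strong peaks 24.8 and 24.9 per Mb. The ratio of both densities, 0.828, was 1.02 times the median of the same relative interval on the other autosomes (exact permutation p = 0.75). It was below 1 for weak peaks, at 0.744 (6th of 20), and close to 1 for strong peaks, at 0.996 (11th of 20). The ratio on the other autosomes was 0.819 ± 0.143 (SD, n = 19). The part from eda to Stc2 had the fewest peaks, 54.9 per Mb, of which 46.8% were strong, then that from Stc2 to pnpla3 with 58.6 and from pnpla3 to pparaa with 69.4. The short part from pparaa to CDPF1, of 0.05 Mb, had the most, 140 per Mb, from 7 peaks of which 4 were strong. Before eda there were 81.3 per Mb and past CDPF1 61.4.

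Within 50 kb of a locus lay 45 distinct peaks, of which 19 were strong (42.2%), with a median fold enrichment of 3.64 and a median width of 740 bp. The other 2218 peaks of the chromosome had 35.7%, 3.06 and 634 bp. All peaks between eda and CDPF1 had 40.1%, 3.63 and 739.5 bp, close to the values at the loci. The loci differed widely in number. There were 5 peaks at eda, 12 at Stc2, 7 at pnpla3, 18 at pparaa and 10 at CDPF1, where 7 peaks are shared by pparaa and CDPF1. Of the 326 fixed windows of 100 kb on the chromosome, 35.3% held fewer peaks than eda and 96.3% fewer than pparaa. No test was made, as the 5 loci lie on a single chromosome and 2 of them share peaks.

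Around eda lay 5 peaks, the fewest of the 5 loci and near the median of 6 per window of 100 kb. Of its 5 peaks 3 were strong, with fold enrichments of 9.99 (12799695 to 12800569), 10.3 (12818909 to 12820785) and 12.03 (12837831 to 12838977), and the position of the locus fell in the 18339 bp between the first and the second of them. The other peaks had 4.41 and 2.65. All strong peaks of the chromosome had a median of 11.2, and 59.2% of its windows of 100 kb held fewer strong peaks than eda. Before the peaks at eda lay 61833 bp without a peak, from 12734008 to 12795840. Its step, from 12 to 13 Mb, had 65 peaks, the 16th of 32, but a median fold enrichment of 4.68, the second highest. Between eda and Stc2 there were 5 gaps of at least 50 kb, and 3 of them, of 115779, 90394 and 50429 bp, followed each other from 12986376 to 13245012, parted only by peaks from 13102155 to 13103970 with a fold enrichment of 7.90 and from 13194365 to 13194583 with 3.55. The window from 13000001 to 13100000 was among the 14 empty ones.

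At Stc2, 6 of the 12 peaks were strong. The strongest, from 13922701 to 13925335, had a fold enrichment of 25.3, the 17th highest on the chromosome, and lay 14.7 kb before the locus. The nearest peaks were weak, from 13936125 to 13936374 with 2.42, 3.63 kb before it, and from 13972003 to 13972276 with 1.75, 32 kb past it. The stated position thus lay in a gap of 35628 bp, but the nearest peak before it was within the uncertainty of that position. Strong peaks lay at some distance on both sides, among them those from 13980360 to 13982782 with 12.2 and from 13986049 to 13988733 with 12.8.

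Of the 5 loci, pnpla3 had the lowest fold enrichment at its strongest peak. Its position lay in a gap of 43850 bp, 19.6 kb past a peak from 22190170 to 22190398 with a fold enrichment of 1.48 and 24.2 kb before one from 22234249 to 22234931 with 2.30. Of its 7 peaks 2 were strong, and the strongest, from 22188225 to 22189098, had 6.51, the 679th highest on the chromosome. Its step as a whole was not sparse. From 22 to 23 Mb there were 88 peaks, the 5th of 32 steps, and 37 strong ones, the second highest number.

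The densest surroundings were those of pparaa. Of its 18 peaks 7 were strong, and the strongest, from 26266467 to 26270853, was 4387 bp wide with a fold enrichment of 22.4. A peak of 3207 bp from 26294185 to 26297391 with 17.0 ended 2.61 kb before the position of the locus, and a weak peak from 26300570 to 26300769 with 1.74 lay 0.570 kb past it, both within the uncertainty of that position. No gap within 50 kb was longer than 11634 bp.

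At CDPF1, 5 of the 10 peaks were strong. A strong peak from 26348675 to 26350301 with a fold enrichment of 11.7 covered the stated position. Its end lay 0.301 kb past that position, within the uncertainty, so whether it covers the locus was not determined. The peak before it, from 26342724 to 26345841, was 3118 bp wide with 16.7, and the strongest, from 26329370 to 26331089, had 19.9. Past the locus a weak peak from 26356004 to 26356236 with 2.10 and the strong peak from 26369207 to 26371370 with 9.01 were followed by the stretch of 974679 bp without a strong peak. The step from 26 to 27 Mb, which holds both pparaa and CDPF1 and much of that stretch, had 68 peaks and a median fold enrichment of 2.45, the 30th of 32, and 18 strong peaks, the 27th.

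**Figure D5:**
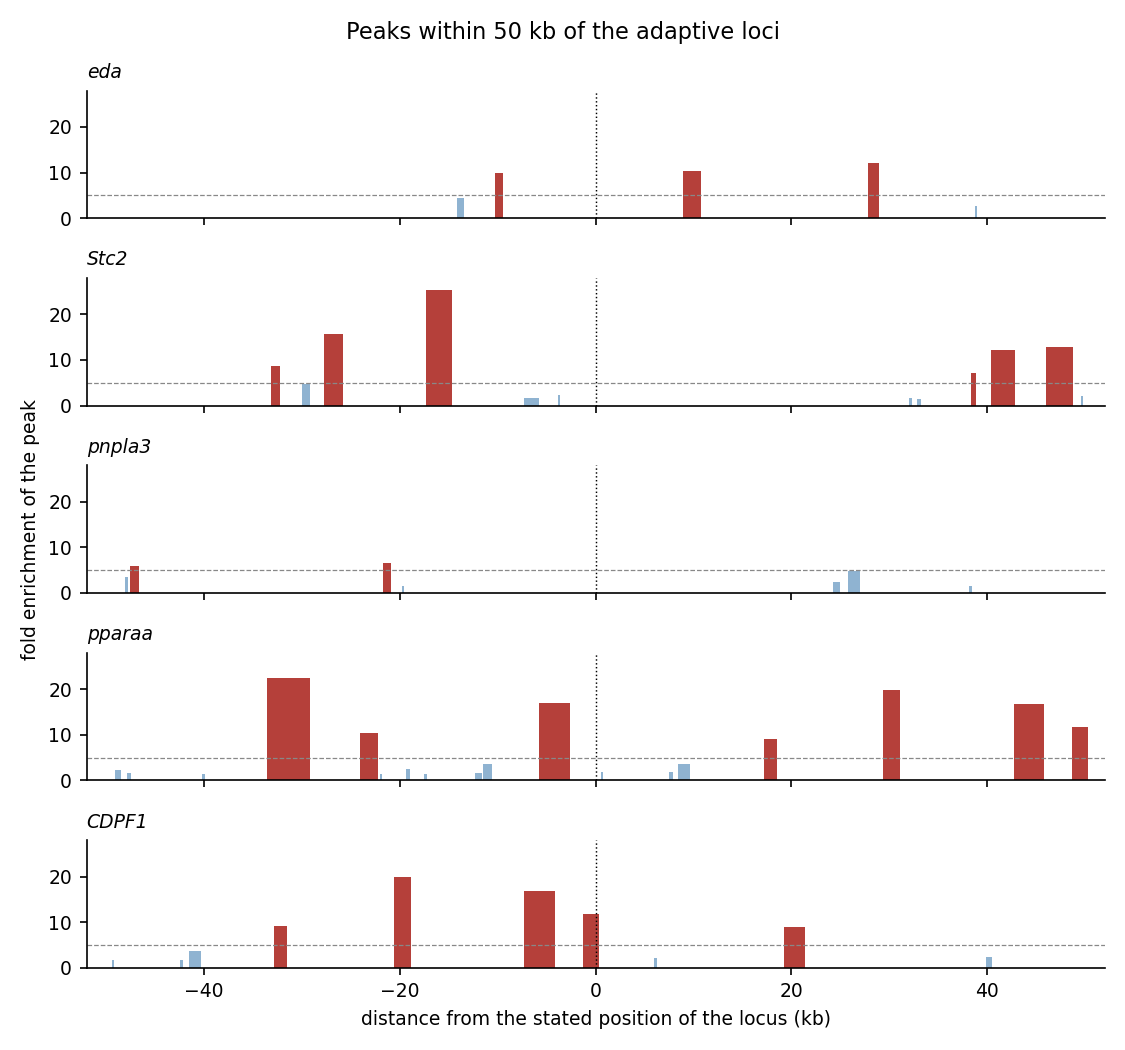
Peaks within 50 kb of the stated position of each of the 5 adaptive loci, drawn at their distance from it (horizontal axis, kb) and with their width to scale, with the height giving the fold enrichment (vertical axis), strong peaks in red, weak peaks in blue and the minimum of 5 as a dashed line. Of the 5 loci, peaks are fewest at eda (5) and lowest at pnpla3 (at most 6.51). They are most numerous at pparaa (18), with fold enrichments of up to 22.4, and the pparaa and CDPF1 panels share 7 peaks.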

How the data were processed

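The study deposited 1 peak list for 3 marine and 3 freshwater ATACseq libraries merged. Reads were mapped to gasAcu1 (aligner not given in the sources used here), mitochondrial reads and PCR duplicates were removed, libraries were down-sampled to a common depth, and peaks were called with MACS2; SAMtools is also named in the submitters' processing notes. Whether naked DNA served as background is not given in the sources used here. The authors' fold enrichment (a ratio), −log10 q-value and score of each peak were used as deposited, and their −log10 p-value was not used; the score was 10 times the −log10 q-value in 100% of peaks. The smallest width was 200 bp and the smallest gap on chromosome IV 151 bp, and the highest q-value among its peaks was 0.0493.

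All peaks on chromosome IV were taken. The members, lists and measures were chosen with earlier results of these data known. Chromosomes were measured to the end of their last peak, and peaks were assigned to steps, windows and intervals by their summits, and to the surroundings of a locus by their edges. Coordinates are gasAcu1, counted from 1. Each measure was compared with the other autosomes by an exact permutation test of the chromosome label, two-sided, on the distance from the median, with a threshold of p at most 0.05 and Benjamini-Hochberg adjustment over 10 measures. The peaks named are the 5 strongest, the 5 widest, those beside the loci and those beside the 5 longest gaps; others named were chosen after their values were seen. Of the measures, only peak density was tried on simulated data, with peaks placed independently at random, and the others were not. Python 3.11.15, NumPy 2.4.6, pandas 2.3.3 and Matplotlib 3.10.9 were used. No sequence of gasAcu1 was used here.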

Additional observations from a re-analysis of the deposited data

How the results depend on the processing

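Of 74 alternatives, 60 were counted as keeping their result, and 4 of the 74 were chosen after seeing the data. For the tested measures this means the same direction and the same side of the threshold. The number of peaks near the loci has neither a direction nor a test. Its counts of 34 (q-value at most 1e-10) and 42 (peaks joined) were among the 60 because they were close to 45. Part of the 60 could not change by construction. A minimum width of 200 bp left out no peak, and measuring from the first peak left widths, fold enrichments and gap lengths as they were. With strong peaks alone, the ratio of chromosome IV to the median of the other autosomes turned to 1.08 for the median width and 1.03 for the median fold enrichment, and that of the interval of the loci to 0.994 (exact permutation p of 0.1, 0.4 and 1); the longest gap passed the threshold at 2.04. The last ratio also passed it with a minimum of 4 (2.16), 7 (1.88) and 10 (1.76), but not of 3 (1.25). Minima of 4 and 7 gave the same stretch of chromosome IV as 5 did, so these passes are not separate results. At 7 and 10 the longest stretch of another autosome reached 973.6 kb (chromosome XVII) and 1038 kb (chromosome VII), against 974.7 and 1212 kb on IV. For the interval of the loci the ratio was 0.913 with the outer 15% at each end left out of the rest (exact permutation p = 0.75). The median width passed the threshold at 0.921 when peaks with a q-value over 1e-10 were left out and at 0.896 with peaks closer than 500 bp joined, and the share of strong peaks at 0.890 when the same peaks were left out. Where a ratio passed, its exact permutation p was 0.05, unadjusted and the smallest that 20 autosomes allow, and over all alternatives p ran from 0.05 to 1. Why the values moved was not tested. The test of the longest gap made no allowance for chromosome length or for the density of strong peaks.

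The number of peaks near the loci, 45, was 19 with strong peaks, 21 within 20 kb and 78 within 100 kb, by construction. A minimum width of 200 bp removed 0 peaks. No paired analysis was possible because 1 list held all 6 libraries together, and leaving out each replicate was not possible for the same reason. The depth of single libraries was not analysed here.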
